A study of Homo sapiens with 6 samples.

Results

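Transcripts of the Notch receptors, their ligands and their best known target genes were examined in tumors grown from CRL-5889, an established human cell line of lung squamous carcinoma. The set holds 10 genes: the receptors NOTCH1, NOTCH2 and NOTCH3, the ligands JAG1, JAG2, DLL1 and DLL4, and the targets HES1, HEY1 and NRARP. Every probe set of the array annotated to exactly 1 of these genes was taken, which gave 31 probe sets of 44988 that named 1 gene and 10 genes of 18132. The tumors carried either the TRA2B-DNAH5 fusion (3 tumors) or the vector alone (3 tumors), and all 6 grew in nude mice for 4 weeks. The labels state that cells were transfected before implantation. They do not say how many clones were used or which promoter drove the fusion, so differences between the transfected populations and the fusion cannot be told apart. Tumors are labelled as biological replicates without naming the mouse each came from, and every tumor was hybridised to 1 array, and the values are log2 probe set levels.

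Notch receptors are cut on contact with a Jagged or Delta-like ligand on a neighbouring cell, and the freed intracellular part enters the nucleus and joins the DNA-binding protein RBPJ. That complex switches on HES1 and HEY1, which encode transcriptional repressors, and NRARP, which encodes a small ankyrin repeat protein that limits Notch signaling. In squamous epithelia NOTCH1 is known to promote differentiation, in blood vessels DLL4 and JAG1 guide sprouting, and NOTCH3 is known from the mural cells around vessels.

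The sequences before the transcription starts of HES1 and NRARP are shown because these are the target genes measured above the filter on dim probe sets. RefSeq promoter sequences (build GRCh38.p14) were held for 8 of the 10 genes, and the 250 bases before the start were searched on both strands for TGGGAA, the core of the RBPJ recognition sequence. Capitals mark each match.
HES1 (chr3:194135898-194136147, plus strand): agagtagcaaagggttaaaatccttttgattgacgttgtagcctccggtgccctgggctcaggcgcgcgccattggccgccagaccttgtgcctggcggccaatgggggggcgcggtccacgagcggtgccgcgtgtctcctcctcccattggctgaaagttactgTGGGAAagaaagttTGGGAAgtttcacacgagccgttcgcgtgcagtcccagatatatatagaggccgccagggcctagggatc
NRARP (chr9:137302272-137302521, minus strand): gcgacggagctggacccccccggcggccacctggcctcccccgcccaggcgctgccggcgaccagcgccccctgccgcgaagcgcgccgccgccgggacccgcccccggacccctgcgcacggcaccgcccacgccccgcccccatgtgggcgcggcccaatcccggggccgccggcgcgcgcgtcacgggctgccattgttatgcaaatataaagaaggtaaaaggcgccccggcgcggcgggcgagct
HES1 held 2 matches, both on the strand of the gene, beginning 84 and 70 bases before the start. Of the 8 sequences, HES1 was the 1 with a match, which says only that these letters are not in the windows of the other 7. Among 35116 promoters 20.8% held at least 1 match and 2.90% held at least 2. The arrays measured transcripts and not binding, so the matches are a description.

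The median log2 level of an array lay between 6.34 and 6.39 in fusion tumors and between 6.27 and 6.37 in vector tumors. Vector tumor 1 stood apart on the first principal component of all probe sets, with a score of 55.8 against -14.8 to -2.73 in the other tumors. It was also the lowest of the 6 tumors in 4 of the 9 Notch genes that could be tested, against 28.8% of all tested genes. It was the highest in 1 of the 9, against 27.2% of all tested genes. Of the squamous marker list, 5 of 8 genes had a probe set of their own. KRT5 (5.06 in fusion, 5.19 in vector tumors) and KRT14 (5.71 and 5.70) were less than 1 log2 unit above the filter level of 4.94 and DSG3 (4.66 and 4.61) was below it, while SOX2 was at 8.82 and 9.65. Among epithelial markers EPCAM (4.71 and 4.55) and CDH1 (4.06 and 3.94) were below the filter level. KRT8 (5.29 and 5.28) and KRT19 (5.24 and 5.02) were less than 1 log2 unit above it, and KRT18 was at 8.55 and 8.57. Levels are not compared between genes below, since probe sets differ in brightness for the same amount of RNA.

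None of the Notch genes passed limma's test between fusion and vector tumors. Of the 10 genes 9 had a probe set above the filter level and were tested, and HEY1 did not. By limma with Benjamini-Hochberg adjustment over 13694 genes, 0 of the 9 passed an adjusted p of 0.05 and 0 had an unadjusted p below 0.05. Over all tested genes 0.073% passed and 5.89% had an unadjusted p below 0.05. The 9 log2 fold changes ran from -0.15 for JAG1 to 0.22 for JAG2, with 3 above 0 and 6 below. Their median was -0.044, against 0.0020 for all tested genes, and the median size regardless of sign was 0.060, against 0.085. These values are of the brightest probe set of each gene. Among their 95% confidence intervals the lowest bound was 0.756-fold, for NRARP, and the highest was 1.48-fold, for JAG2. Other probe sets of a gene could lie outside these bounds, as the dimmer one of NOTCH3 did.

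**Figure D1:**
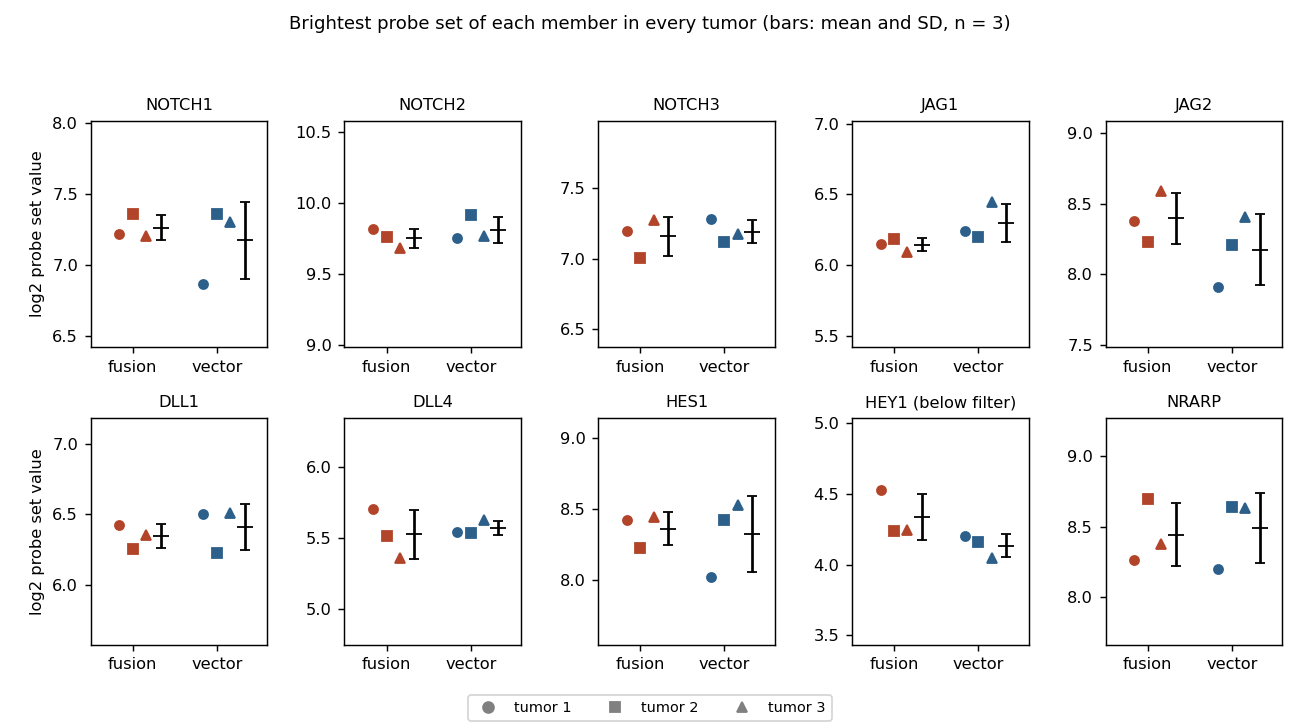
Log2 value of the brightest probe set of each of the 10 Notch genes in every tumor, with 3 fusion tumors at the left and 3 vector tumors at the right of each panel and the mean and SD beside them. All panels span the same number of log2 units around the gene's own mean. The groups overlapped in every panel except those of JAG1, lower in fusion tumors, and HEY1, higher in fusion tumors and below the filter level.

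Among the receptors, NOTCH1, a regulator of squamous differentiation, had log2 values of 7.22, 7.36 and 7.20 in fusion tumors 1 to 3, against 6.86, 7.36 and 7.30 in vector tumors 1 to 3. The groups overlapped, and the low vector value came from the tumor that stood apart. The log2 fold change was 0.086 (SE 0.14, 95% confidence interval -0.23 to 0.41, limma adjusted p = 0.983), and without vector tumor 1 it was -0.070. The other probe sets of NOTCH1 gave -0.012 and -0.11.

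NOTCH2, the receptor with the most probe sets of its own, had 9.81, 9.76 and 9.68 in fusion tumors, against 9.75, 9.91 and 9.77 in vector tumors on its brightest probe set. The groups overlapped, with a log2 fold change of -0.060 (SE 0.093, interval -0.27 to 0.15). Its 5 probe sets ran from -0.11 to 0.30 and did not share a direction. The dimmest of them, 11745417_a_at, had 4.52, 4.62 and 4.52 in fusion tumors, against 4.37, 4.14 and 4.27 in vector tumors. Its groups did not overlap, but all its values lay below the filter level and its adjusted p over all probe sets was 0.828 by limma (log2 fold change 0.30, SE 0.10).

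The NOTCH3 probe sets differed from each other more than those of any other Notch gene examined. The brighter, 11716570_a_at, had 7.19, 7.01 and 7.27 in fusion tumors, against 7.28, 7.12 and 7.17 in vector tumors. These groups overlapped, and the log2 fold change was -0.034 (SE 0.10, interval -0.27 to 0.20, limma adjusted p = 0.987). The dimmer, 11716569_at, had 5.16, 5.49 and 5.34 in fusion tumors, against 6.15, 6.39 and 5.92 in vector tumors. All fusion values of this probe set were below all vector values. They were also less than 1 log2 unit above the filter level of 4.94, so the size of the difference is uncertain where the background is not known. It averaged 5.33 ± 0.17 in fusion tumors and 6.15 ± 0.24 in vector tumors (SD, n = 3 each), a log2 fold change of -0.82 (SE 0.14, interval -1.15 to -0.50). Its unadjusted limma p was 0.000302, the 61st smallest of 44988 probe sets, and its adjusted p of 0.223 did not pass.

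The difference between the NOTCH3 probe sets was then taken within each tumor, a comparison chosen after their values were seen. The dimmer minus the brighter was -2.03, -1.51 and -1.94 in fusion tumors, against -1.13, -0.73 and -1.26 in vector tumors. The groups did not overlap, and the difference between them was -0.79 (exact two-sided permutation p = 0.1, the smallest value that 3 against 3 tumors allow). Of 4739 genes with exactly 2 probe sets, 7, NOTCH3 among them, had log2 fold changes at least this far apart, and the median gap was 0.092. Leaving out each tumor in turn kept the log2 fold change of 11716569_at between -0.94 and -0.70. The annotation does not say which part of the transcript either probe set covers, and a probe set ending in _a_at is of the type that reads several transcripts of its gene.

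**Figure D2:**
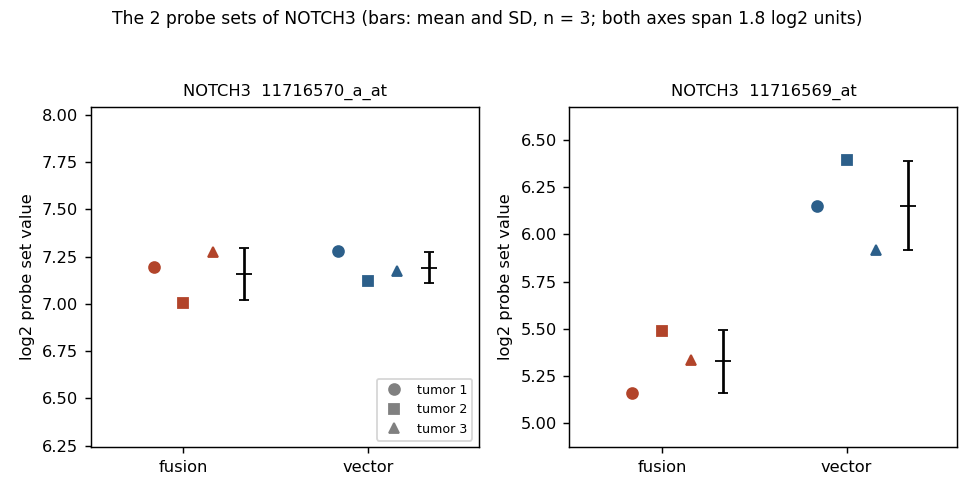
Log2 values of both NOTCH3 probe sets in the 3 fusion tumors (left of each panel) and the 3 vector tumors (right), with the mean and SD of each group and axes of equal span. Groups overlapped on the brighter probe set (left panel) and were apart on the dimmer one (right panel), at 5.33 ± 0.17 in fusion and 6.15 ± 0.24 in vector tumors.

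Marker lists were read beside the NOTCH3 probe set as sums of linear levels, with no test of the sums. All 7 markers of pericytes and smooth muscle, cells that use NOTCH3, had a probe set and 6 were above the filter level. They summed to 1202 to 1396 in fusion tumors and 1151 to 1305 in vector tumors. MCAM made up 67.4% to 72.8% of that sum, and without it the sums were 363 to 405 in fusion tumors and 345 to 425 in vector tumors. The log2 fold changes of RGS5, PDGFRB, DES and ACTA2 were -0.023, 0.019, -0.016 and -0.13. Those of MCAM and MYH11 were 0.17 and 0.13, and MYH11 was the 1 of the 6 whose groups did not overlap. Endothelial markers summed to 832 to 914 in fusion tumors and 794 to 857 in vector tumors, with 8 of 10 above the filter level.

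The sums of 3 other lists did not overlap between the groups. Limma called 0 of their tested genes, against 0.073% of all tested genes. Of the 7 fibroblast markers DCN and LUM were below the filter level. Groups did not overlap for 4 of the 5 tested, all higher in fusion tumors, against 11.7% of all tested genes. These were FAP, COL1A1, THY1 and COL1A2, with log2 fold changes of 0.91, 0.65, 0.36 and 0.24. Each had an unadjusted limma p below 0.05, as had 5.89% of all tested genes, while COL3A1 (0.20) overlapped. The 7 fibroblast markers summed to 2363 to 2595 in fusion tumors and 1660 to 2128 in vector tumors. THY1 made up 76.3% to 82.8% of this, and without it the sums were 507 to 598 in fusion tumors and 328 to 452 in vector tumors. Of the 7 leukocyte markers PTPRC and CD14 were below the filter level. The 7 summed to 612 to 722 in fusion tumors and 484 to 497 in vector tumors. Without CD68, a lysosomal protein, the sums were 275 to 298 and 278 to 283, which overlapped. The 5 measured squamous markers summed to 570 to 654 in fusion tumors and 778 to 1261 in vector tumors, and without SOX2 to 153 to 170 and 152 to 172, which overlapped as well. Their part in the NOTCH3 values was not tested. In bulk tumors fewer cells of a type and less RNA per cell cannot be told apart. How far RNA of the mouse host binds these human probe sets is not known.

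Of the ligands, JAG1, a Jagged protein, had 6.15, 6.18 and 6.09 in fusion tumors, against 6.24, 6.20 and 6.45 in vector tumors on its brightest probe set. All fusion values were lower, with a gap of 0.015 between the nearest tumors. The log2 fold change was -0.15 (SE 0.099, interval -0.38 to 0.072, limma adjusted p = 0.962). It was -0.078 without vector tumor 3, the tumor with the highest JAG1 value, and between -0.20 and -0.13 without any other single tumor. JAG1 was the 1 tested Notch gene of 9 whose groups did not overlap, and over all tested genes this held for 11.7%. The 5 other JAG1 probe sets were below the filter level and gave -0.19 to 0.23.

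JAG2, the other Jagged ligand, had 8.38, 8.23 and 8.59 in fusion tumors, against 7.91, 8.20 and 8.41 in vector tumors. The lowest value was again vector tumor 1, and the groups overlapped. JAG2 had the highest log2 fold change of the 9 tested genes at 0.22 (SE 0.15, interval -0.11 to 0.56, limma adjusted p = 0.962). Leaving out vector tumor 1 gave 0.092 and leaving out vector tumor 3 gave 0.34, the ends of the range over all 6 tumors. Leaving out fusion tumor 3 gave 0.13. Its level was read by 1 probe set.

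On their brightest probe sets the Delta-like ligands also overlapped between the groups. DLL1, which signals between neighbouring cells in many tissues, had 6.43, 6.26 and 6.36 in fusion tumors, against 6.50, 6.23 and 6.51 in vector tumors, and the log2 fold changes of its 3 probe sets ran from -0.071 to -0.021. DLL4, the ligand of sprouting endothelium, had 5.70, 5.52 and 5.36 in fusion tumors, against 5.54, 5.54 and 5.63 in vector tumors. The intervals of the log2 fold changes on these brightest probe sets were -0.32 to 0.18 for DLL1 and -0.29 to 0.20 for DLL4. The other DLL4 probe set, 11739649_at, had 5.23, 5.24 and 5.19 in fusion tumors, against 5.18, 5.01 and 5.17 in vector tumors. All its fusion values were higher, with a log2 fold change of 0.097 (limma adjusted p = 0.971), against -0.044 on the brightest.

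Among the targets HES1 and NRARP could be tested, and their groups overlapped on the brightest probe set of each. HES1, a repressor of differentiation genes, had 8.42, 8.23 and 8.44 in fusion tumors, against 8.02, 8.42 and 8.53 in vector tumors. The groups overlapped, with a log2 fold change of 0.040 (SE 0.14, interval -0.29 to 0.37, limma adjusted p = 0.990). Without vector tumor 1 it was -0.11, and the 5 HES1 probe sets ran from -0.18 to 0.040. NRARP had 8.26, 8.69 and 8.38 in fusion tumors, against 8.20, 8.64 and 8.63 in vector tumors. The NRARP groups overlapped, at -0.046 (SE 0.16, interval -0.40 to 0.31), and its second probe set gave -0.010.

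HEY1 was dim. Its brighter probe set had 4.53, 4.24 and 4.24 in fusion tumors, against 4.20, 4.16 and 4.04 in vector tumors. All fusion values were higher, but all 6 lay below the filter level, where the background is not known. Fitted over all probe sets, its log2 fold change was 0.20 (SE 0.11, limma adjusted p = 0.971), and the other HEY1 probe set gave -0.010.

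Counted by probe set, 0 of the 31 passed by limma after adjustment over 44988 probe sets, where 0.0156% did. An unadjusted p below 0.05 was seen for 2 of the 31, 11716569_at of NOTCH3 and 11745417_a_at of NOTCH2, and for 5.33% of all. The groups did not overlap for 6 of the 31 (19.4%, against 10.9% of all probe sets), of which 3 were higher in fusion tumors and 3 lower. Of the 31, 8 had a mean below the filter level. Probe sets of a gene share its transcripts and are not independent. In all, 12 log2 fold changes were above 0 and 19 below, with a median of -0.018 against 0.0089 for all probe sets.

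**Figure D3:**
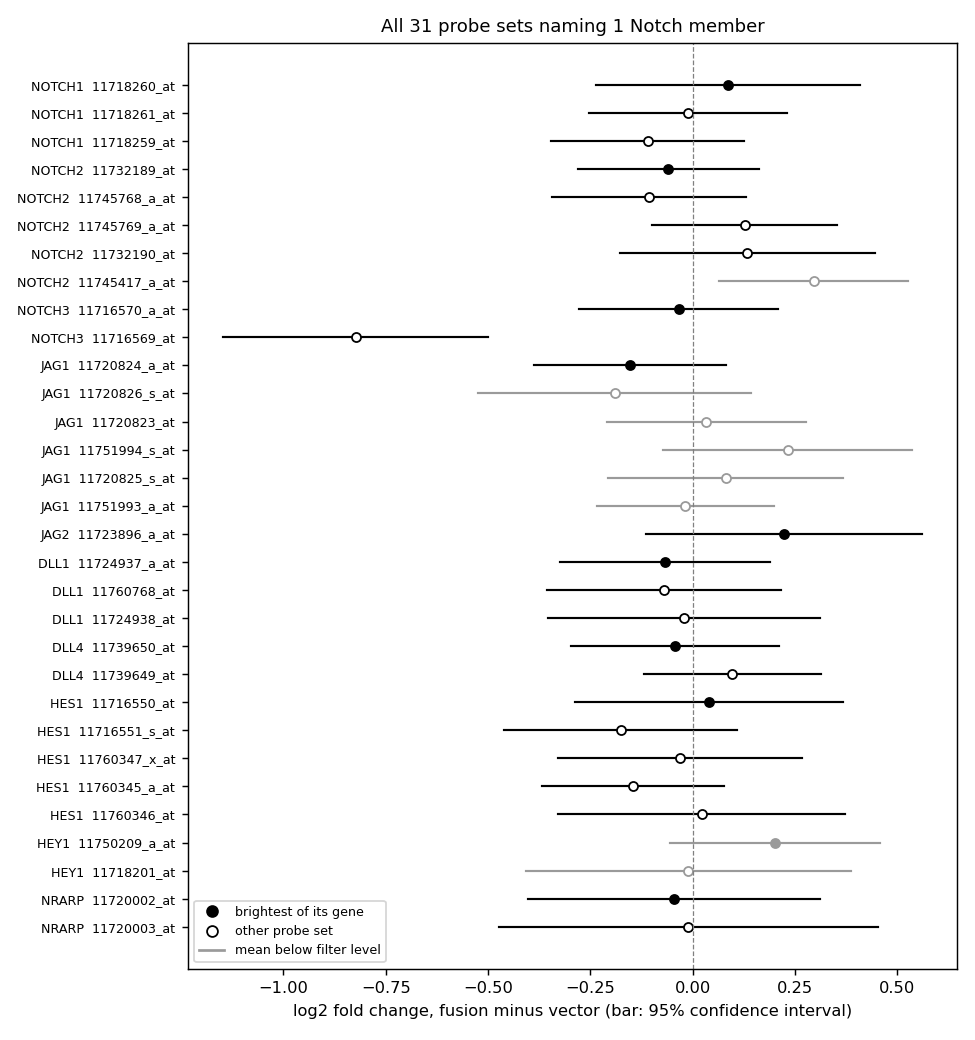
Log2 fold change, fusion minus vector, of each of the 31 probe sets with its 95% confidence interval from limma, ordered by gene and by brightness. Filled points are the brightest probe set of a gene and grey marks those with a mean below the filter level. All intervals reach across 0 except those of 11716569_at of NOTCH3 (-1.15 to -0.50) and 11745417_a_at of NOTCH2 (0.066 to 0.53).

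The rest of the pathway was read from 8 lists with 67 genes, of which 62 were tested. By limma 0 rose and 0 fell after adjustment, where 0.073% of all tested genes passed. At an unadjusted p below 0.05, 1 was higher and 2 were lower, against 5.89% of all tested genes. The groups did not overlap for 7 of the 62 (11.3%, against 11.7% of all tested genes). Log2 fold changes were above 0 for 29 and below 0 for 33, with a median of -0.0055.

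Enzymes that add sugars to the receptors included LFNG, a Fringe protein that tunes which ligands a receptor answers to. LFNG averaged 6.81 ± 0.12 in fusion tumors and 6.58 ± 0.078 in vector tumors (SD, n = 3 each; log2 fold change 0.23, limma adjusted p = 0.844), with no overlap. POGLUT1, which adds glucose, had 0.15 and MFNG, another Fringe, -0.16. Of the cleavage enzymes PSEN2, a catalytic subunit of gamma-secretase, had 0.22, FURIN, which cuts the receptor precursor, -0.11 and ADAM10, the surface protease, 0.27. ADAM10 read 6.58 in vector tumor 1 and 7.34 to 7.62 in the other tumors.

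In the nucleus, MAML3 and MAML1, co-activators of the Notch complex, had log2 fold changes of 0.19 and -0.13, and the acetyltransferase CREBBP -0.12. Among co-repressors the Groucho family members TLE3, TLE1 and TLE2, which HES proteins recruit, had the smallest p. TLE3 averaged 6.34 ± 0.16 in fusion tumors and 6.66 ± 0.15 in vector tumors (SD, n = 3 each), a log2 fold change of -0.32 (SE 0.12, limma adjusted p = 0.730). TLE1 had -0.29 and TLE2 -0.27, with adjusted p values of 0.855 and 0.882, while TLE4 had -0.042. In receptor trafficking and turnover, DTX3, a Deltex family member, had -0.27, FBXW7, which marks the freed Notch part for destruction, 0.34 and NEURL1B, which acts on ligands, -0.18. FBXW7 too was lowest in vector tumor 1, at 7.55 against 8.30 to 8.53 in the other tumors.

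Of the other receptor and ligands, DLK2, a non-canonical ligand, had -0.17, DLL3 -0.072 and DLK1 -0.025. The other HES and HEY genes lay near 0, with HES6 at -0.096, HES5 at 0.060 and HEYL at 0.044, and a median over 7 genes of -0.0010. Of 7 further reported targets 6 were above 0, with a median of 0.16. SOX9, a transcription factor, had 0.25 and MYC 0.16. CDKN1A, the cell cycle inhibitor p21, had the highest log2 fold change of the 62 at 0.49 (SE 0.25, limma adjusted p = 0.917), with 9.62, 9.80 and 9.78 in fusion tumors, against 9.83, 9.25 and 8.65 in vector tumors. Its groups overlapped, and the vector tumors spread more widely than the fusion tumors. Many of these targets answer to several other pathways.

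**Figure D4:**
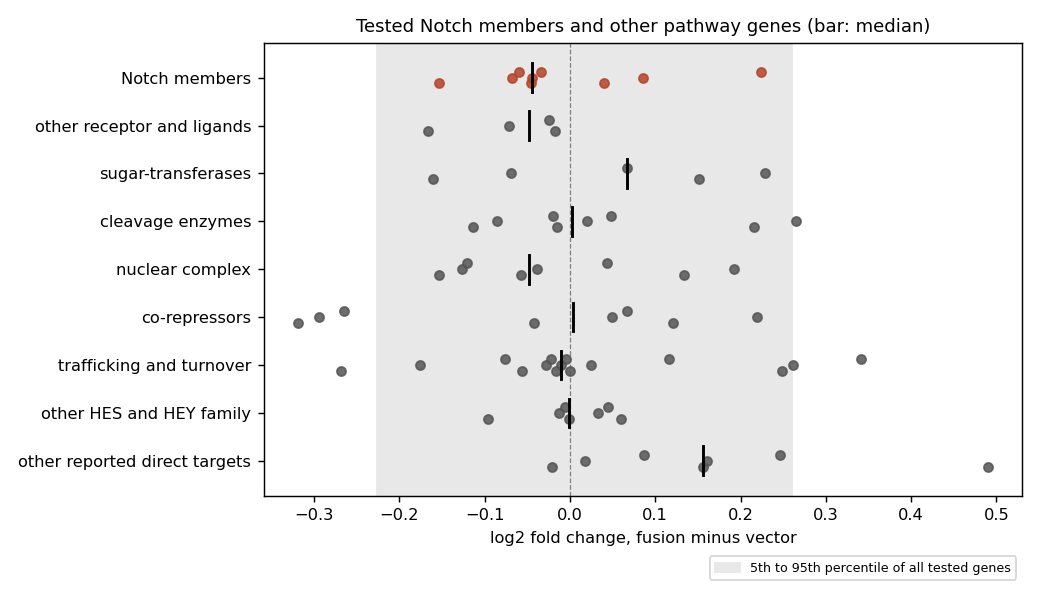
Log2 fold changes, fusion minus vector, of the 9 tested Notch genes and of the 62 tested genes in 8 further pathway lists, 1 point per gene with a bar at the median. The grey band runs from -0.23 to 0.26, the 5th to 95th percentile of all 13694 tested genes. All 9 Notch genes lay inside it, and TLE3 (-0.32) and CDKN1A (0.49) were the farthest outside on either side.

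The profile of JAG1, the Notch gene with the smallest gene-level p, was compared with those of 13693 other tested genes over the 6 arrays. The nearest, by root mean square difference after centring each gene on its own mean, were PPP1R3G (0.022 log2 units), ART3 (0.026), UBE3B (0.027), NWD1 (0.030) and COL11A2 (0.033). None of these 5 passed by limma, with adjusted p values from 0.935 to 0.962. They were chosen for profiles close to that of JAG1, which did not pass either, so this is no separate result.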

How the data were processed

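Total RNA of 6 xenograft tumors was measured on 1 Affymetrix array each, per the labels. The authors deposited a single table of log2 probe set values. That scale was read from the values, and the sources used here do not give the background correction or normalization. Groups and replicate numbers came from the sample titles.

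Of 49293 probe sets, 44988 named 1 gene in the platform annotation, 1832 named several and 2473 none here. The probe set with the highest mean stood for each of 18132 genes, and genes whose mean was under log2 4.94, the 30th percentile over the table, were left out, leaving 13694. The groups were tested with limma 3.58.1 under R 4.3.3 (lmFit, eBayes, two-sided, Benjamini-Hochberg over all genes). A second fit used all 44988 probe sets without a filter, and gave the values of single probe sets and of HEY1. The test was checked on simulated data. P-values measure the spread between tumors, and 3 arrays per group limit the precision. Besides the Notch genes, up to 3 genes per pathway list with the smallest p were named, and the 5 profiles nearest to that of the Notch gene with the smallest p. TLE4 was named after its value was seen. Alternatives covered 16 settings of filter, probe set choice, normalization, model and tumors. Members and lists were chosen with earlier results of these data known. Figures used matplotlib 3.10.9.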

Additional observations from a re-analysis of the deposited data

How the results depend on the processing

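Under all 16 alternatives 0 Notch genes and 0 other pathway genes passed by limma, and 0 of the Notch probe sets under the 13 that apply to them, at most 1 Notch gene and 8 pathway genes having an unadjusted p below 0.05. The count of all genes past the threshold was 10 with all settings as reported. It was 1 with the 50th percentile filter, 16 with the mean of a gene's probe sets, 6 with the most variable probe set, 140 with array weights and 0 to 37 when 1 tumor was left out (0 without fusion tumor 1, 3 without tumor 2 or 3 of either group, and 37 without vector tumor 1). The median over the tested Notch genes stayed between -0.073 and 0.0058. Of 139 recomputed values of single Notch genes 17 changed sign, and none of the 139 was called. The cause was not tested. With the mean of probe sets NOTCH1 was -0.012, NOTCH2 0.078, DLL4 0.027 and HES1 -0.058. With the most variable probe set NOTCH2 was 0.13. With array weights NOTCH1 was -0.068, NOTCH3 0.051, DLL1 0.011 and HES1 -0.043. Leaving out 1 tumor gave -0.070 to 0.18 for NOTCH1, -0.092 to 0.042 for NOTCH3, -0.13 to 0.040 for DLL4, -0.11 to 0.14 for HES1 and -0.19 to 0.046 for NRARP. JAG1 kept its sign in the 12 settings that gave a value, and JAG2 in all 16. These values came from 1 probe set per gene, so the choice of probe set was not tested for either. NOTCH3 was -0.82 wherever its dimmer probe set stood for the gene (limma adjusted p 0.239 with the most variable probe set and 0.138 with plain _at probe sets) and -0.43 with the mean of both. The dimmer probe set itself stayed between -0.94 and -0.70, with a limma adjusted p from 0.0724 to 0.9999.

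Replicate numbers were shared between the groups. Deviations from the group means of same-numbered tumors correlated at 0.13, 0.17 and 0.043 over probe sets, each the highest for its tumor. For fusion tumor 3 the next was 0.013, with vector tumor 2. Deviations from a mean of 3 tumors are not independent, so these values cannot decide whether tumors were paired. With the replicate block 8 genes passed, 0 of them Notch genes. Values below the filter level, HEY1 among them, are limited by a background that is not known.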

Other observations

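Besides the 31 probe sets, 4 were annotated to NOTCH2 together with 3 to 5 related genes, such as the NOTCH2NL genes, and were left out of the counts above because they cannot be assigned to 1 gene. All 4 had higher means in fusion tumors, though 11719214_s_at, with a mean of 4.11, lay below the filter level. The brightest, 11719213_s_at, had 8.73, 8.55 and 8.69 in fusion tumors, against 8.57, 8.32 and 8.32 in vector tumors, with a log2 fold change of 0.26 (SE 0.11). The other 3 had log2 fold changes of 0.38, 0.26 and 0.20, and 11752984_s_at was the 1 whose groups did not overlap. By limma over all 49293 probe sets none passed, with adjusted p values from 0.950 to 0.976. The brightest probe set that names NOTCH2 alone was at -0.060, and the 5 that do so ran from -0.11 to 0.30.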
